A study of Mus musculus with 9 samples.

Results

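Epiregulin (Ereg), amphiregulin (Areg), heparin-binding EGF-like growth factor (Hbegf) and transforming growth factor alpha (Tgfa) are ligands of the epidermal growth factor (EGF) receptor, and Adam17 and Adam10 encode the proteases that release them from the cell surface. These 6 genes were taken by symbol from the 22524 genes counted, and all 6 were listed. The set was chosen because Ereg was higher in macrophages lacking serum response factor (SRF), so values of the SRF knockout (SRF-KO) libraries are given for the 6 genes as a description, with no test. RNA sequencing was done on bone marrow-derived macrophages, primary macrophages grown from mouse marrow cells in culture for 7 days, all of strain C57BL/6. The 3 groups, of 3 libraries each, were control cells (wild type) left untreated, control cells after 6 h with bacterial lipopolysaccharide (LPS), and SRF-KO cells after 6 h with LPS. The sources used here do not say how Srf was removed, the age or sex of the mice, or whether replicates came from separate animals, and SRF-KO cells without LPS were not analysed here.

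EGF receptor ligands are made as membrane-anchored precursors. A protease of the ADAM family, chiefly ADAM17 for epiregulin, amphiregulin, HB-EGF and TGF-alpha, cuts the precursor near the membrane and frees the growth factor, which binds EGFR or ERBB4 on the same or a neighbouring cell. Macrophages are known as a source of such ligands for epithelium and stroma during inflammation and repair, and LPS signals in macrophages through Toll-like receptor 4.

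Total counts ranged from 15321839 to 24912173 per library. Levels are in CPM, each gene's count relative to its library's total after TMM scaling (trimmed mean of M-values), given as mean ± SD with n = 3 libraries. Differences were tested in edgeR by quasi-likelihood over 11560 genes with Benjamini-Hochberg adjusted p-values. These reflect only how far replicate libraries differed, which may be technical. The LPS comparison in control cells and that of SRF-KO with control share the control libraries with LPS. Srf, the targeted gene, was at 44.3 ± 4.54 CPM in untreated control, 57.6 ± 2.17 CPM in control with LPS and 1.047 ± 0.438 CPM in SRF-KO. The Y-linked genes Uty, Ddx3y, Kdm5d and Eif2s3y had 942, 2082, 806 and 2161 counts over the control libraries with LPS and 0, 1, 1 and 4 over the SRF-KO libraries. For every SRF-KO value below, the loss of Srf and this difference in Y-linked genes cannot be told apart. All 10 macrophage markers examined were expressed, with summed levels of 17200 to 17810 CPM in untreated control, 24060 to 24550 with LPS and 24670 to 24920 in SRF-KO. The like sums of both LPS groups hide opposite differences. In SRF-KO 3 of the 10 were higher and 7 lower than in control with LPS (median log2 fold change -0.88). Over all genes tested 39.1% were higher and 37.9% lower. Lyz2 was at 8925 ± 208 CPM in control and 12300 ± 112 CPM in SRF-KO, whereas Fcgr1 was at 1853 ± 19.99 and 84.2 ± 5.04 CPM and Cd68 at 1410 ± 42.8 and 553 ± 24.9 CPM.

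Ereg was nearly silent in control macrophages and clearly expressed in SRF-KO macrophages. Ereg (ENSMUSG00000029377) lies on chromosome 5, 91074622 to 91093646 on the plus strand of GRCm38. It had 0 counts in each untreated library, 2, 5 and 4 counts in control with LPS, and 1327, 1533 and 987 counts in SRF-KO with LPS. As levels these were 0.161, 0.346 and 0.259 CPM in control with LPS and 59.8, 59.3 and 56.0 CPM in SRF-KO. The SRF-KO libraries stood far above all control libraries, and their own spread was small (58.4 ± 2.09 CPM). Against control with LPS the difference was 7.81 on the log2 scale (SE 0.152), a 225-fold higher level. It rests on 11 counts over the control group, and counting error alone gives the ratio an exact 95% interval of 126 to 452. In this comparison 77.0% of all genes tested passed, 39.1% upwards and 37.9% downwards, and since it chose the gene nothing is read from that share. Against untreated control, where 0 counts allow a level of up to 0.0497 CPM (a floor of 3 counts in the group), Ereg was at least 1178-fold higher in SRF-KO. In that comparison 79.5% of genes passed, 39.4% upwards and 40.1% downwards. In control cells the 11 counts with LPS against 0 put Ereg at least 5.23-fold higher with LPS, and this comparison shares its LPS libraries with the one that chose the gene. Floors cover counting error only, since copies made by PCR are not independent molecules.

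Areg, a close relative of Ereg that binds the same receptor, had the same pattern of levels. Areg (ENSMUSG00000029378) is the next counted gene along, at 91139599 to 91148432 on the plus strand, and its start is 65.0 kb downstream of the start of Ereg. The untreated libraries had 0 counts each, control with LPS had 0, 5 and 2 counts, and SRF-KO had 399, 415 and 325 counts. The corresponding SRF-KO levels were 17.99, 16.1 and 18.4 CPM (17.5 ± 1.26 CPM), against 0.158 ± 0.175 CPM in control with LPS. As for Ereg, all SRF-KO libraries lay above all control libraries. The difference from control with LPS was 6.72 on the log2 scale (SE 0.249), and that from untreated control was at least 349-fold.

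Summed markers of neutrophils, T, NK and innate lymphoid cells, stroma and epithelium, and dendritic cells were higher in SRF-KO than in control with LPS. Those of B cells were lower, and those of mast cells and basophils overlapped. Any part of such cells in the ligands' levels was not tested. Single markers given with values, here and above, were picked after their values were seen. Neutrophil markers (10 listed, 4 tested) summed to 11.04 to 12.2 CPM in control with LPS and 87.4 to 99.7 CPM in SRF-KO. Of those tested 3 were higher and 0 lower, beside 39.1% and 37.9% of all genes. Mmp8 (4.88 ± 0.757 and 72.8 ± 5.65 CPM) and S100a8 (5.11 ± 0.844 and 16.1 ± 0.332 CPM) made up most of that sum, while S100a9 did not pass and Ly6g, Mpo and Elane had 0 counts in both groups. For 10 T, NK and innate lymphoid markers the sums were 38.3 to 40.2 and 76.3 to 79.5 CPM, nearly all of it Il7r (36.8 ± 1.14 and 77.5 ± 1.59 CPM). Cd4, the other marker tested, was lower in SRF-KO (2.20 ± 0.229 and 0.0129 ± 0.0223 CPM), and Cd3d, Cd3g and Ncr1 had 0 counts throughout. Stromal and epithelial markers (12 listed, 3 tested) summed to 20.7 to 25.5 and 29.3 to 31.3 CPM. Pdgfrb was higher (14.8 ± 2.29 and 27.4 ± 1.26 CPM), Cdh1 and Cdh5 were lower, and Col1a1, Col3a1, Krt8, Krt18 and Krt14 had 0 counts throughout. Epcam and Dcn, not tested, had 0 and 12 counts over control with LPS and 18 and 28 over SRF-KO. For 7 dendritic cell markers the sums were 3.11 to 4.43 and 11.45 to 12.4 CPM, most of it Ccr7 (2.75 ± 0.496 and 11.1 ± 0.392 CPM), with Cd209a at 0. Mast cells and basophils are a known source of amphiregulin, and of their 10 markers 6 had 0 counts throughout (Fcer1a, Ms4a2, Mcpt4, Mcpt8, Tpsb2 and Cma1), with sums of 0.453 to 0.691 and 0.619 to 0.721 CPM. For 6 B cell markers the sums were 1.68 to 2.74 and 0.580 to 0.991 CPM.

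Divided by exon length (4128 bases for Ereg and 1215 for Areg, all annotated exons merged), both ligands were at almost the same level in SRF-KO. Ereg was at 14.1 ± 0.507 CPM per kb and Areg at 14.4 ± 1.04 CPM per kb. The ratio of Ereg to Areg within each SRF-KO library was 0.979, 1.09 and 0.894, on either side of equality.

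In control cells Areg had 0 counts without LPS and 7 with LPS, which puts its level at least 3.33-fold higher with LPS. The groups overlapped, because 1 of the 3 LPS libraries had 0 counts, and without replicate 2 of control with LPS the bound was 1.44-fold. Ereg and Areg passed the filter on low counts only through their SRF-KO libraries, so their LPS differences are given with no test.

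RefSeq promoters (GRCm38.p6) were matched for 4 of the 6 genes, namely Areg, Tgfa, Adam17 and Adam10, and not for Ereg and Hbegf. That of Areg is shown because Areg is the ligand among the 4 whose level differed most between groups. The 250 bases before the start of Areg (chr5:91139349-91139598, plus strand) follow in lower case, with a full cyclic AMP response element, TGACGTCA, in capitals.
Areg: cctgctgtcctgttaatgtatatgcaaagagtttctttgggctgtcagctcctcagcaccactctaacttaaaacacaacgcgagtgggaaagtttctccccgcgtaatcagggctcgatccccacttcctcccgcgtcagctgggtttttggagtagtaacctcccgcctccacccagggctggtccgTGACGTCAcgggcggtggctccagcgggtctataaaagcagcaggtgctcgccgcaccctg
The element begins 61 bases before the start, and 1.79% of 32851 mouse promoters of 300 bases hold these letters on either strand. The shorter form TGACG, which overlaps the full element, was found in the promoters of Areg and Adam10 and in 20.8% of all promoters. The CArG box, the motif bound by SRF, was in none of the 4 promoters and in 1.63% of all. Neither the AP-1 motif TGANTCA (7.81% of all) nor the NF-kB motif (4.51% of all) was in any of the 4. A match is a description of letters in this window and not a binding site.

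The other EGF receptor ligands contributed little. Hbegf (ENSMUSG00000024486, chromosome 18) had 6, 3 and 2 counts in untreated control, 3, 1 and 5 in control with LPS, and 9, 8 and 9 in SRF-KO, and was too low to be tested. Its SRF-KO levels of 0.406, 0.310 and 0.510 CPM overlapped those of control with LPS, which reached 0.323 CPM. Tgfa (ENSMUSG00000029999, chromosome 6) had 0 counts in all 9 libraries. This allows levels of up to 0.0497, 0.0709 and 0.0457 CPM in untreated control, control with LPS and SRF-KO (a floor of 3 counts in each group).

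**Figure D1:**
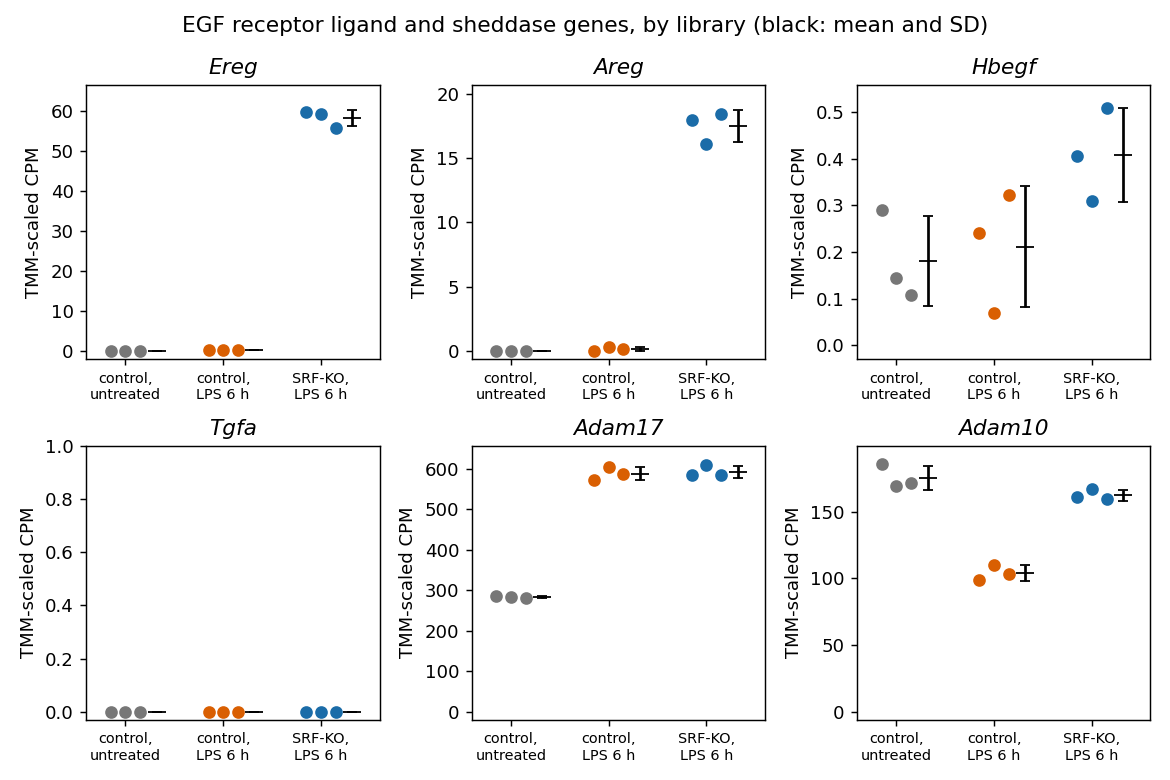
TMM-scaled CPM of the 6 genes in each of the 9 libraries (points; vertical axes start near 0 and differ between panels), with the mean and SD of each group in black. Ereg and Areg are near 0 in both control groups and at 58.4 and 17.5 CPM in SRF-KO, Tgfa is at 0 throughout, Adam17 separates untreated from LPS-treated cells, and Adam10 is lowest in control with LPS.

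The sheddases were expressed in every group, at levels per length above those of the ligands. Adam17 (ENSMUSG00000052593, chromosome 12, 21323509 to 21373632, minus strand), first known as the TNF-alpha converting enzyme, was at 285, 283 and 281 CPM in untreated control and at 572, 605 and 587 CPM in control with LPS. In SRF-KO with LPS it was at 583, 609 and 584 CPM. Both LPS-treated groups lay well above the untreated level and overlapped each other. In control cells LPS raised Adam17 by a log2 fold change of 1.05 (SE 0.0378, edgeR adjusted p = 3.98e-25), or 0.51 when libraries were scaled by their totals. In this comparison 81.7% of all genes tested passed, 40.8% upwards and 40.8% downwards, so a pass alone did not set Adam17 apart. Between SRF-KO and control, both with LPS, the difference was 0.01 (SE 0.0367), or 0.37 with library totals. SRF-KO with LPS stood 1.07 above untreated control (SE 0.0374).

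Adam10, the other main sheddase of EGF-family precursors and also the protease that first cuts Notch receptors, went the other way with LPS. Adam10 (ENSMUSG00000054693, chromosome 9, 70678997 to 70780229, plus strand) was at 186, 169 and 171 CPM in untreated control, 98.4, 110 and 104 CPM in control with LPS, and 161, 167 and 159 CPM in SRF-KO. Control with LPS was the lowest group, and SRF-KO lay just under the untreated range. Adam10 fell with LPS in control cells, with a log2 fold change of -0.75 (SE 0.0450, edgeR adjusted p = 5.80e-18), or -1.30 with library totals. It was 0.64 higher in SRF-KO than in control with LPS (SE 0.0450), or 1.00 with library totals. Against untreated control SRF-KO differed by -0.11 (SE 0.0420).

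The ratio of Adam17 to Adam10 within a library does not depend on how libraries are scaled. Per exon length (7154 and 4913 bases) it was 1.06, 1.15 and 1.13 in untreated control, 3.99, 3.78 and 3.89 in control with LPS, and 2.49, 2.51 and 2.52 in SRF-KO. The 3 groups did not overlap, and the order was untreated control, SRF-KO with LPS, control with LPS. Group means were 1.11 ± 0.0494, 2.51 ± 0.0155 and 3.89 ± 0.105 (SD, n = 3). In these bulk samples, fewer cells making a transcript and less of it per cell cannot be told apart.

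**Figure D2:**
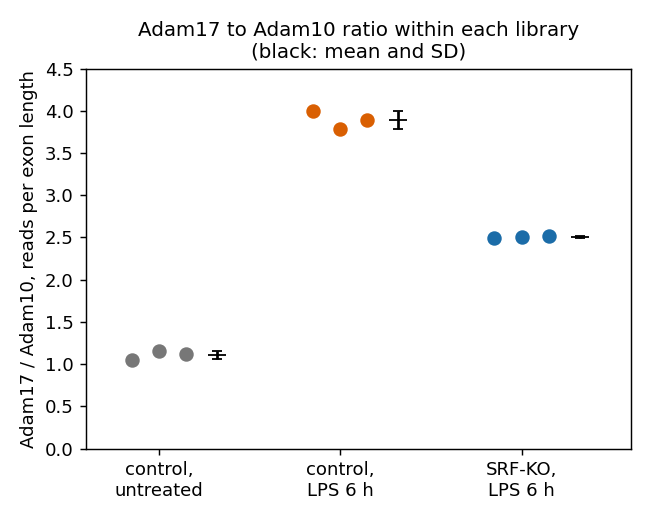
Ratio of Adam17 to Adam10 reads per exon length within each library (points), with the mean and SD of each group in black; the vertical axis starts at 0. Untreated control lies between 1.06 and 1.15, SRF-KO with LPS between 2.49 and 2.52, and control with LPS between 3.78 and 3.99.

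The receptor for these ligands, Egfr, was also higher in SRF-KO. Egfr, which encodes the EGF receptor, had 5, 3 and 4 counts in untreated control, 11, 10 and 19 in control with LPS, and 114, 142 and 105 in SRF-KO. Levels were 0.200 ± 0.0503, 0.935 ± 0.272 and 5.53 ± 0.409 CPM, and the groups did not overlap. Egfr was higher in SRF-KO than in control with LPS (log2 fold change 2.54, SE 0.212). Egfr passed the filter only through its SRF-KO counts, so this difference and its LPS difference are given with no test. As given above, 77.0% of all genes tested passed between SRF-KO and control with LPS. Erbb3, a receptor for neuregulins, was lower in SRF-KO, at 3.47 ± 0.822 against 6.77 ± 1.00 CPM (log2 fold change -0.996, SE 0.154, adjusted p = 3.67e-07 in edgeR's test). Erbb3 was at 4.10 ± 0.257 CPM in untreated control, and its rise with LPS (0.72, SE 0.151) became 0.17 and did not pass with library totals. Erbb2 had 1 count in all and Erbb4 had 0, so of the 4 receptor genes only Egfr and Erbb3 passed the filter.

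Of the 7 other EGF-family ligands on the list, 3 passed the filter on low counts. Nrg4 and Nrg1, neuregulins that bind ERBB4 and ERBB3, were higher in SRF-KO than in control with LPS. Nrg4 was at 0.0978 ± 0.0451, 1.06 ± 0.415 and 3.19 ± 0.458 CPM in untreated control, control with LPS and SRF-KO. The SRF-KO difference was 1.63 in log2 units (SE 0.247). Nrg4 passed the filter only through its SRF-KO counts, so this difference and its LPS difference have no test here. Nrg1 rose with LPS, from 0 counts in untreated control, and was at 0.874 ± 0.206 CPM with LPS and 1.67 ± 0.290 CPM in SRF-KO (0.90, SE 0.291, adjusted p = 0.00551 in edgeR's test). Egf itself was at 0.965 ± 0.215 CPM in untreated control and lower with LPS, at 0.382 ± 0.114 CPM (log2 fold change -1.35, SE 0.402). In SRF-KO Egf was at 0.525 ± 0.127 CPM. Egf passed the filter only through its untreated counts, so its LPS and SRF-KO differences have no test here. Epgn, Btc and Nrg2 had at most 12 counts in any library, and Nrg3 had 0 throughout.

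Genes known to restrain ErbB signalling and the ERK kinases below it were mixed in direction, with the phosphatases Dusp5 and Dusp4 and the receptor inhibitor Errfi1 higher in SRF-KO. Of 21 listed brakes 19 were tested. Between SRF-KO and control with LPS, 7 were higher and 5 lower (median log2 fold change -0.08, beside 0.01 over all genes), or 12 and 4 with library totals. Over all genes 39.1% were higher and 37.9% lower, so the share of brakes that were higher was near that of all genes. Dusp5, a nuclear ERK phosphatase, was at 37.7 ± 1.28 against 7.47 ± 0.858 CPM (2.34, SE 0.0878, adjusted p = 2.62e-24 in edgeR's test). Dusp4 was at 96.8 ± 3.19 against 42.6 ± 0.797 CPM, and Errfi1, an inhibitor that binds the EGFR kinase domain, at 44.7 ± 2.59 against 17.2 ± 1.54 CPM. Errfi1 and Dusp4 were 1.39 and 1.18 higher on the log2 scale. Spred1, a suppressor of RAF activation, was lower, at 106 ± 7.76 against 258 ± 11.3 CPM (-1.29, SE 0.0473). With LPS in control cells 8 brakes rose and 8 fell (median 0.17, beside -0.02 over all genes, of which 40.8% rose and 40.8% fell), or 4 and 11 with library totals. Of those named, Dusp5 did not pass with LPS (0.17 with TMM, -0.38 with library totals) and was at 6.61 ± 0.670 CPM in untreated control. Ptpn1, a phosphatase that acts on EGFR, rose with LPS (1.32), and Rasa1, a RAS inhibitor, fell (-0.97).

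**Figure D3:**
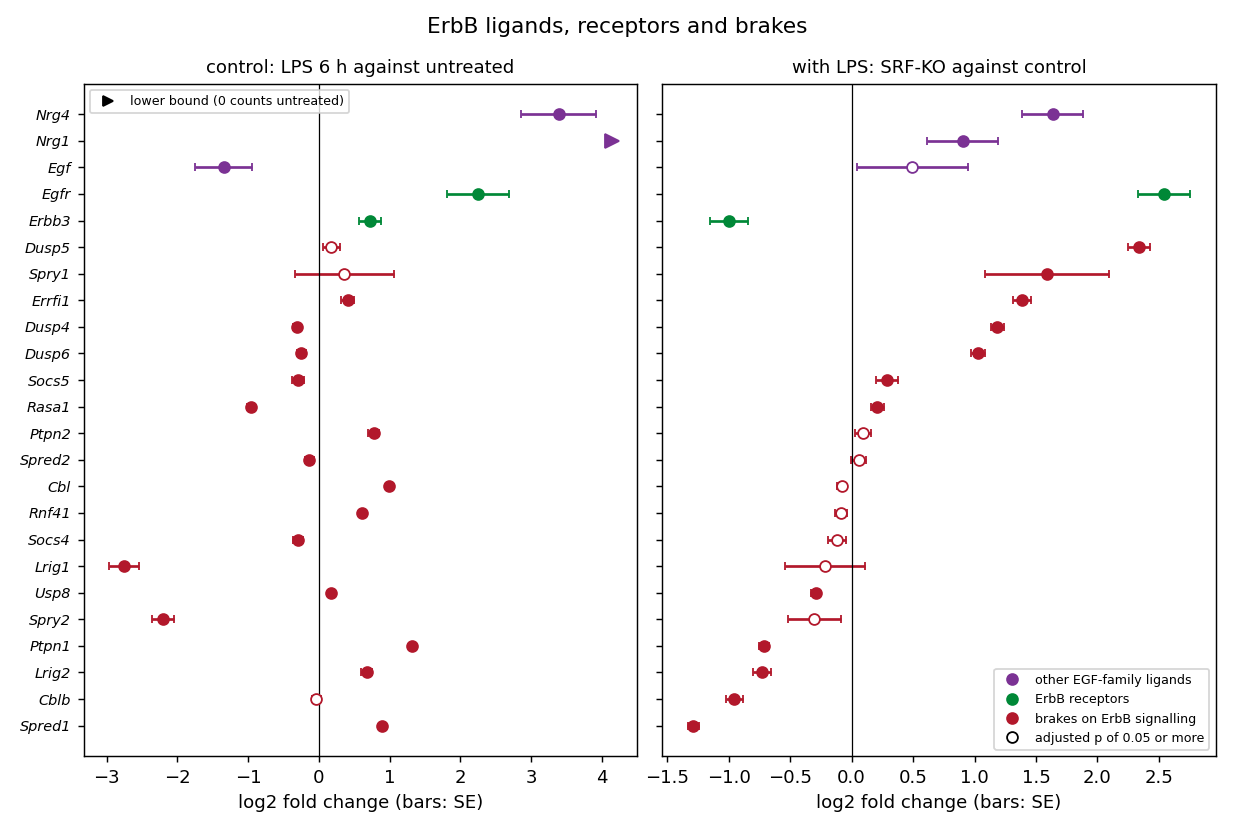
Log2 fold changes with SE (horizontal axes, edgeR fit of all 9 libraries) of tested EGF-family ligands outside the chosen 6, ErbB receptors and brakes on ErbB signalling, for LPS in control cells (left) and SRF-KO against control with LPS (right); open points did not pass, and the triangle is a lower bound. Egfr, Dusp5, Errfi1 and Dusp4 lie to the right of 0 in the SRF-KO panel at 2.54, 2.34, 1.39 and 1.18. Nrg4, Egfr and Spry1 passed the filter only through SRF-KO, and Egf only through untreated control. The points of these genes in both panels are descriptions. Both panels use the control libraries with LPS.

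The adaptors and kinases that carry the signal inward were all expressed, and the balance of their directions depended on the scaling. All 23 listed genes were tested, and 9 were higher and 11 lower in SRF-KO (median -0.09), beside 39.1% and 37.9% of all genes, or 14 and 6 with library totals. Stat3, Grb2, Stat5a and Map2k1 (MEK1) were lower by either scaling choice. Grb2, the adaptor that links receptors to RAS, was at 181 ± 4.53 CPM in SRF-KO and 355 ± 6.36 CPM in control with LPS (-0.97 in log2, SE 0.0375). Stat5a was at 35.7 ± 1.45 against 89.2 ± 0.971 CPM (-1.32, SE 0.0518). With LPS in control cells 15 rose and 4 fell (median 0.49), beside 40.8% and 40.8% of all genes, or 7 and 10 with library totals. Map2k1 rose from 125 ± 5.14 to 584 ± 9.89 CPM (2.23, SE 0.0401).

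Partners and inhibitors of the sheddases were mixed in direction with LPS, and most of those tested were lower in SRF-KO with TMM scaling. Of 19 listed, 12 were tested. With LPS in control cells 5 rose and 4 fell (median 0.24), beside 40.8% and 40.8% of all genes. In SRF-KO 2 were higher and 8 lower (median -0.47), beside 39.1% and 37.9% of all genes, or 4 and 6 with library totals. Rhbdf2, which encodes iRhom2, the carrier that brings ADAM17 to the surface of macrophages, rose with LPS from 80.0 ± 2.24 to 381 ± 13.1 CPM and was at 266 ± 6.67 CPM in SRF-KO (-0.52, SE 0.0380, adjusted p = 3.06e-15 in edgeR's test). Rhbdf2 thus rose with LPS, as Adam17 did, and was lower in SRF-KO, where the Adam17 difference was 0.01. Tspan5, a tetraspanin that accompanies ADAM10, was at 7.28 ± 0.415, 4.58 ± 0.695 and 19.2 ± 0.634 CPM in untreated control, control with LPS and SRF-KO. It fell with LPS (-0.66, SE 0.128) and was higher in SRF-KO than in control with LPS (2.06, SE 0.108). The other tetraspanins tested on the list, Tspan14, Tspan17 and Tspan33, were lower in SRF-KO (-0.18, -0.56 and -1.73). They lie outside the rule for named genes and were added after their values were seen. Timp1 and Timp2, inhibitors of metalloproteases, changed by 3.14 and -1.22 on the log2 scale with LPS.

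Among the 8 other ADAM proteases listed, 4 were tested, and in SRF-KO 0 were higher and 4 lower (median -0.59), beside 39.1% and 37.9% of all genes, or 1 and 2 with library totals. Adam19 had the clearest pattern of these. It rose with LPS from 13.0 ± 1.19 to 66.0 ± 1.60 CPM and was at 8.33 ± 0.761 CPM in SRF-KO (-2.98, SE 0.0738, adjusted p = 3.01e-30 in edgeR's test). Adam8 was at 2836 ± 45.2, 2122 ± 73.6 and 1230 ± 44.3 CPM in the 3 groups. With LPS in control cells 2 of the 4 rose and 2 fell, beside 40.8% and 40.8% of all genes, or 1 and 3 with library totals, where Adam9 turned from 0.42 to -0.12 in this comparison and from -0.23 to 0.13 in that of SRF-KO.

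For other proteins cut by ADAM17 or ADAM10, all 20 genes listed were tested. With LPS 17 rose and 3 fell (median 1.78), beside 40.8% and 40.8% of all genes. In SRF-KO 5 were higher and 13 lower (median -0.44), beside 39.1% and 37.9% of all genes, or 9 and 10 with library totals. Tnf, the classical ADAM17 substrate, was at 52.0 ± 2.92, 484 ± 8.89 and 507 ± 7.55 CPM in untreated control, control with LPS and SRF-KO. Its SRF-KO difference of 0.07 (SE 0.0374) did not pass with TMM scaling (adjusted p = 0.102 in edgeR's test) and was 0.42 and passed with library totals. Cd40 and Vcam1, a co-stimulatory receptor and an adhesion molecule, were lower in SRF-KO by 2.22 and 3.24 on the log2 scale (log2 fold changes -2.22 and -3.24).

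Ereg and Areg lie beside a cluster of chemokine genes, several of which were also higher in SRF-KO. Of 24 counted genes starting within 1000 kb of the Ereg start, 16 were tested, including Ereg and Areg. Cxcl3, Cxcl1 and Cxcl2, which encode attractants of neutrophils, start 288.5, 183 and 171 kb upstream of Ereg. Cxcl1 was at 0.280 ± 0.0930 CPM in untreated control, 19.95 ± 1.11 in control with LPS and 616 ± 21.3 in SRF-KO, and Cxcl3 at 0.399 ± 0.0246, 174 ± 9.03 and 2724 ± 126 CPM. The SRF-KO differences of Cxcl1, Cxcl3 and Cxcl2 were 4.95 (SE 0.0524), 3.97 (SE 0.0461) and 3.29 (SE 0.0446) on the log2 scale. Unlike Ereg and Areg, each of these genes had at least 255 counts in every control library with LPS.

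Lower-level genes of the stretch shared the SRF-KO difference in part. Cxcl5 had 0, 2 and 3 counts in control with LPS and 44, 49 and 29 in SRF-KO (3.97, SE 0.466). Rassf6 was 4.24 higher (SE 0.471). Cxcl5 and Rassf6 passed the filter only through their SRF-KO counts, so these differences are given with no test. Afp and Mthfd2l were 1.83 and 0.83 higher. Mthfd2l and Epgn lie between the chemokine genes and Ereg. Mthfd2l was at 2.22 ± 0.824 CPM in control with LPS and 4.01 ± 0.238 CPM in SRF-KO, and Epgn, 47.2 kb upstream, had 1, 8 and 12 counts in SRF-KO. Pf4, among the chemokines, was lower in SRF-KO (-0.85, SE 0.0438), as were Ankrd17 and Cox18 at the upstream edge (-0.54 and -0.96). Ppbp, another chemokine gene of the cluster, and Gm9958 did not pass in SRF-KO (0.45 and -0.53). With library totals Ppbp was at 0.80 and passed. Downstream of Areg, Btc had 4, 4 and 1 counts in SRF-KO. At the far edge Rchy1 did not pass (-0.09 with TMM, 0.27 with library totals) and Cdkl2 was 1.57 higher. The antisense gene Gm19610 overlaps Ereg by 152 bases, and as the strand setting of the counting is not given, reads there could not be assigned with certainty.

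**Figure D4:**
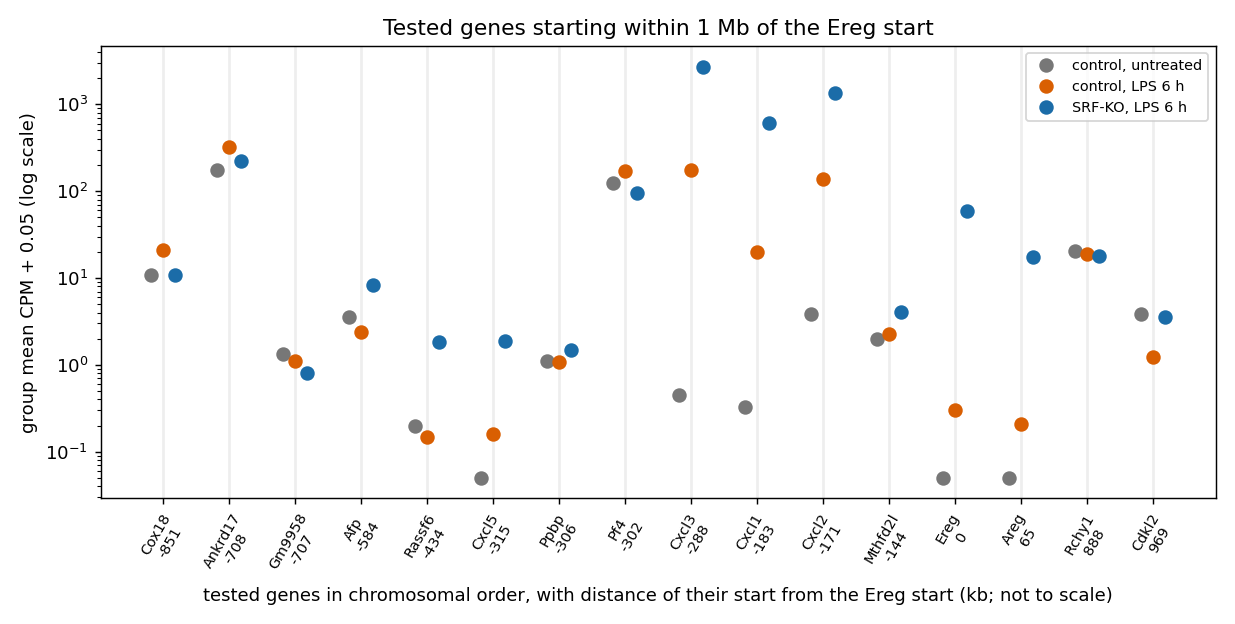
Group mean levels (CPM + 0.05, log scale) of the 16 tested genes that start within 1000 kb of the Ereg start, in chromosomal order with their distance in kb on the horizontal axis, not to scale. Ereg, Areg and the chemokine genes Cxcl3, Cxcl1 and Cxcl2 have their SRF-KO point far above both control points, whereas Pf4, Ankrd17 and Cox18 do not.

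The promoters of Cxcl1, Cxcl2 and Cxcl3 differ from that of Areg in the NF-kB motif and the full cyclic AMP response element. Stretches around the NF-kB motif are shown because all of Cxcl1, Cxcl2 and Cxcl3 hold it, in capitals, 71, 97 and 73 bases before the start, whereas the Areg promoter above does not. They come from RefSeq promoters (GRCm38.p6, plus strand) at chr5:90891159-90891199, chr5:90903787-90903827 and chr5:90786013-90786053. Each run of capitals is 2 overlapping matches, 1 on each strand.
Cxcl1: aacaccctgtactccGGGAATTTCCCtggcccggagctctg
Cxcl2: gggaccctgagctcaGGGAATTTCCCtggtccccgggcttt
Cxcl3: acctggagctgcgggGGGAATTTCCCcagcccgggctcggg
None of the 3 holds the full cyclic AMP response element, the AP-1 motif or a CArG box in the 300 bases searched. The Areg promoter likewise lacks the last 2 of these. The shorter form TGACG, present in Areg, was found 2 times in Cxcl1 and not in Cxcl2 or Cxcl3. These chemokine promoters were looked up after the levels of their genes had been seen.

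Of the 11560 genes tested, the gene whose pattern over the 9 libraries was most like that of Ereg was its neighbour Areg. Likeness was the root mean square difference of log2 CPM after centring each gene, and it was 0.783 between Ereg and Areg. Next came Plet1 (0.957), Mmp3 (1.03), Rbfox1 (1.08) and Lif (1.14). For Areg the closest were Mmp3 (0.557), Rbfox1 (0.660), Lif (0.687), Ereg (0.783) and F3 (0.806), so 3 genes were on both lists of 5. All points share libraries and depth, and the order is a description. By Pearson correlation, which ignores the size of the difference, 0 of the 5 genes were kept for either ligand.

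These genes had few or no counts in control cells and a moderate level in SRF-KO. Lif, which encodes leukaemia inhibitory factor, a cytokine of the interleukin-6 group, had 3 counts over untreated control, 13 over control with LPS and 1012 over SRF-KO. Mmp3, a matrix metalloprotease, had 0, 11 and 853 counts, with 13.1 ± 2.01 CPM in SRF-KO. Plet1, a surface protein of epithelial progenitors, had 0, 33 and 2040 counts, and F3, the tissue factor that starts coagulation, had 6, 26 and 1567. They lie on chromosomes 9, 9, 11 and 3 (Plet1, Mmp3, Lif and F3), apart from the ligands on chromosome 5.

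The AP-1 motif TGANTCA was in the promoters of Plet1, Mmp3, Lif and F3, in contrast to Areg, and not in either promoter of Rbfox1. It begins 144, 46, 228 and 146 bases before the start and is in capitals in these stretches of RefSeq promoters (GRCm38.p6, all plus strand), at chr9:50494366-50494402, chr9:7445761-7445797, chr11:4257325-4257361 and chr3:121723376-121723423.
Plet1: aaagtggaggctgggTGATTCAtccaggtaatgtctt
Mmp3: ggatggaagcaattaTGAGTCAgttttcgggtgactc
Lif: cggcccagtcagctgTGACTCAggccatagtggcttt
F3: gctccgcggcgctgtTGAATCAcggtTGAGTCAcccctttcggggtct
F3 holds 2 matches. The motif is in 7.81% of all mouse promoters of this length, and since these genes were chosen by their levels and looked up afterwards, the matches are given without a test.

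**Figure D5:**
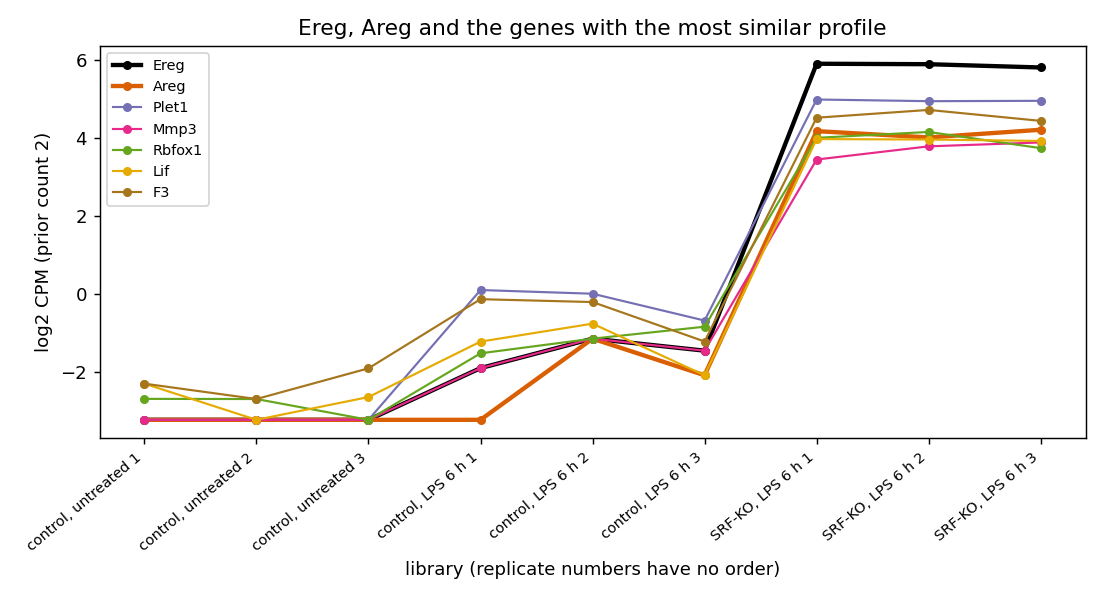
Log2 CPM (prior count 2) of Ereg, Areg and the 5 other genes closest to either in pattern, in each of the 9 libraries; lines only join the points of a gene, and replicates have no order. All 7 genes are near the floor in untreated control, above it in most LPS control libraries and highest in the 3 SRF-KO libraries.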

How the data were processed

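Reads were counted per Ensembl gene in 9 libraries, and the deposited counts are raw, 1 whole number per gene and library, per the file headers. Per the submitters' processing notes the tools were featureCounts, STAR 2.5.4b, Trimmomatic, bcl2fastq 2.19 and edgeR, on build GRCm38, and the labels' protocols name a stranded TruSeq kit. Strand setting and annotation release: not given in the sources used here. Symbols were found for 22214 of 22524 identifiers. Positions and exon lengths came from GENCODE M21.

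In R 4.3.3, edgeR 4.0.16 kept 11560 genes (filterByExpr) and fitted 1 quasi-likelihood model with 3 groups and TMM scaling, with a threshold of 0.05 on Benjamini-Hochberg adjusted p-values. Alternatives were DESeq2 1.42.0, library totals, no filter, a replicate block, fits of 2 groups and leaving out each library. Marker genes are given as sums and counts. Standard errors came from unshrunken fold changes and F. The fit was tested on simulated data in which far fewer genes changed than here, so that test says nothing on the choice of scaling. Replicate pairs differed by more than sampling noise (chi-square per degree of freedom 1.75 to 3.95).

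Promoters (300 bases) were searched on both strands for 5 motifs. The 6 genes and the gene lists were chosen with earlier results of these data known. Named genes are the 6, Srf, all other EGF-family ligands and ErbB receptors, up to 4 passing genes of smallest p per other list and comparison, Y-linked genes, genes within 1000 kb of Ereg and the 5 most like each of Ereg and Areg.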

Additional observations from a re-analysis of the deposited data

How the results depend on the processing

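Scaling moved many calls. When libraries were scaled by their totals and not by TMM, the median log2 fold change of all genes became -0.57 for LPS and 0.37 for SRF-KO against control with LPS. Calls then moved from 4722 higher and 4721 lower to 2428 and 7835 with LPS, and from 4521 and 4384 to 7059 and 2434 in SRF-KO. With library totals the LPS bound of Ereg was 3.57-fold, Adam17 and Adam10 were at 0.37 and 1.00 in SRF-KO against control with LPS, and against untreated control Adam17, Adam10, Ereg and Areg were at 0.87, -0.30, at least 1030-fold and at least 305-fold. List counts that moved with library totals for LPS were receptors higher (1), other ADAM proteases higher (1), adaptors higher and lower (7 and 10) and brakes higher (4). For SRF-KO they were other ADAM proteases higher and lower (1 and 2), sheddase partners higher (4), adaptors higher and lower (14 and 6), brakes higher (12) and other substrates higher (9). Library totals also turned the LPS change of Srf (-0.17), Adam9 (-0.12), Dusp5 (-0.38), Errfi1 (-0.15), Ppbp (-0.53), Pf4 (-0.090) and Mthfd2l (-0.33), and the SRF-KO difference of Adam9 (0.13), Cbl (0.27) and Rchy1 (0.27).

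Without the filter on low counts 1 other ADAM protease was higher in SRF-KO. In fits of only the 2 groups compared, 1 receptor (Erbb3) and 1 other ligand (Nrg1) rose with LPS, and Ereg, Areg, Egfr, Nrg4, Cxcl5 and Rassf6 had too few counts to be tested for LPS, as did Egf for SRF-KO. DESeq2 gave calls within 1.5 times of edgeR's (4649 higher and 4475 lower with LPS, 4257 and 4242 in SRF-KO) and moved none of the results compared. Leaving out 1 library at a time, the LPS bound ranged from 3.41 to 6.06-fold for Ereg and from 1.44 to 4.71-fold for Areg, and the SRF-KO difference from 7.60 to 8.09 and from 6.22 to 7.92. The SRF-KO bounds against untreated control ranged from 769.7 to 1199-fold for Ereg and from 228 to 364-fold for Areg, since fewer untreated libraries raise the floor. The LPS changes of Ppbp and Mthfd2l, which did not pass, ranged from -0.28 to 0.25 and from -0.15 to 0.37.

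Replicate numbers were shared by the groups, but same-numbered libraries did not deviate together (correlations -0.0746 to 0.0971 over 9 pairs, with the best match on the same number in 8 of 18 cases). With a replicate block 4741 genes were higher and 4726 lower with LPS, and 4530 and 4389 in SRF-KO. The block changed no call among the genes and lists named except that Cbl (-0.08) passed as lower in SRF-KO.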

Other observations

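Set among all 11521 tested genes with an annotated exon length, the per-length level of Ereg in SRF-KO stood above 73.9% of genes and that of Areg above 74.3%. In control with LPS the shares were 2.35% and 4.89%. Adam17 stood above 91.6%, 93.6% and 95.6% of genes in untreated control, control with LPS and SRF-KO, and Adam10 above 90.4%, 79.1% and 87.8%. The sheddases were thus among the better expressed genes in all 3 groups, and Ereg and Areg reached the upper range only in the SRF-KO libraries. These shares compare genes within a group, on means over its libraries after TMM scaling. Scaling a whole group against another would not change them.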
